A study of Homo sapiens with 12 samples.

Results

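At 1412 of 20046 human protein-coding genes, the acetylated histone variant H2A.Z (H2A.Zac) was lower on one stretch of the promoter and higher on another in cells whose EP400 lacks its TRRAP-binding region, compared with cells with wild type EP400. These split promoters were chosen by 1 rule. The window of 2 kb to each side of the transcription start site (TSS) had to overlap at least 1 region lost in the mutant and at least 1 region gained in it. They hold 1373 lost and 1564 gained regions, 2937 of the 94586 H2A.Zac regions in the deposited lists. The direction of change was therefore used to choose them, while the strand of the gene, the side of the TSS, the sequence and the second mark, H2A.Z, were not.

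The lists come from ChIP-seq of H2A.Z and H2A.Zac in clonal lines of K562, a human chronic myeloid leukemia line. In all libraries the endogenous EP400 carried a dTAG degron and was degraded with 500 nM dTAGV-1 for 24 h. The cells also expressed exogenous EP400 from a safe harbor locus, either wild type (WT) or ΔTRRAP, which lacks the domains that hold TRRAP. Each line gave 2 biological replicates of input, H2A.Z ChIP and H2A.Zac ChIP, 12 libraries in all. Because clonal lines were compared, the effect of the deletion and a difference between clones cannot be told apart. "Lost" means higher in WT and "gained" means higher in ΔTRRAP, each by an authors' log10 likelihood ratio of at least 3 between the merged replicates of the lines. "Unchanged" regions are below 3. A region carries this ratio only, so no value per replicate, no depth and no test between the lines can be given here. The Wilson 95% confidence intervals of shares cover counting error only, and neighboring genes are not independent.

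H2A.Z is a variant of histone H2A that marks the nucleosomes flanking the TSS of active and poised genes, and its acetylation accompanies transcription. In human cells the NuA4/TIP60 complex combines both steps: its EP400 subunit exchanges H2A for H2A.Z, and its TIP60 (KAT5) subunit acetylates the H2A, H2A.Z and H4 tails. TRRAP is a very large scaffold protein in the same complex that transcription factors contact to bring the complex to their sites.

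The promoters of GLUL and RCC2, among the highest in ratio, serve as examples of lost and gained sides in sequence. The stretches shown were chosen after their values were seen. At GLUL, which encodes glutamine synthetase, the lost region lay far upstream and the gained region covered the TSS. At RCC2, a gene with a role in mitosis, the lost region lay upstream and the gained region with the higher ratio downstream. The stretches of 120 bases below come from the hg38 genome. They were taken as close to the middle of each region as annotated exons allowed, and they are written along the strand of the gene with CG dinucleotides in capitals. The GLUL stretches are at chr1:182394486-182394605 (lost) and chr1:182392207-182392326 (gained), the RCC2 stretches at chr1:17441482-17441601 (lost) and chr1:17437808-17437927 (gained), all on the minus strand. The BMF stretch, at chr15:40106768-40106887 on the minus strand, is from a lost region downstream of the TSS of this gene, which encodes a pro-apoptotic BH3-only protein.
GLUL lost: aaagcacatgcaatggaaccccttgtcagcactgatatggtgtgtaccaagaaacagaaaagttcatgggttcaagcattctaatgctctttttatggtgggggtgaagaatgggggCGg
GLUL gained: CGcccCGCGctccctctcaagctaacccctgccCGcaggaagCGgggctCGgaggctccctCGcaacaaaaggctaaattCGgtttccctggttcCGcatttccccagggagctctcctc
RCC2 lost: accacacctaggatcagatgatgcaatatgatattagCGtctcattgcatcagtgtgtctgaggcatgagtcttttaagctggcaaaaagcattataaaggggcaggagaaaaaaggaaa
RCC2 gained: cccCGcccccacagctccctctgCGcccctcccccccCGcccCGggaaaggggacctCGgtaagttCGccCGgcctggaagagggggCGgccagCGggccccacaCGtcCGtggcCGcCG
BMF lost: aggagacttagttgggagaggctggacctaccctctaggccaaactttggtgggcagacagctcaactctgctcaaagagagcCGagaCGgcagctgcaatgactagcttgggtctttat

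The lost stretches of GLUL and RCC2 each hold 1 CG, the gained stretches 9 and 13. Their GC content was 45.8% and 40.8% on the lost side and 64.2% and 79.2% on the gained side. The BMF stretch, downstream of its TSS, holds 2 CGs at a GC content of 53.3%. The contrast was not found in every such pair. At H1-4 the stretch of the lost region holds 2 CGs at 37.5%. That of the gained region holds 1 at 35.0% and lies from 2279 to 2398 bp, past the end of the gene. This stretch, the lost one of GLUL (-2399 to -2280 bp) and that of BMF (2005 to 2124 bp) lie outside the window of 2 kb. The medians over all regions are given further on.

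The second set shows the 150 bases upstream of the TSS for promoters on which the account below turns, with capitals for 5 short promoter motifs found on either strand. They are the GC box with the letters GGGCGG, the CCAAT box, the E-box with the letters CACGTG, the TATA box as TATAAA, and an ETS factor motif written as CCGGAAG. Neighboring motifs may overlap. HSPA5, at chr9:125241383-125241532 on the minus strand, encodes the endoplasmic reticulum chaperone BiP, and H1-4, at chr6:26156179-26156328 on the plus strand, a linker histone. ARMH1, at chr1:44674542-44674691 on the plus strand, shares its promoter with TMEM53 on the opposite strand. BMF is shown at chr15:40108893-40109042 on the minus strand.
HSPA5: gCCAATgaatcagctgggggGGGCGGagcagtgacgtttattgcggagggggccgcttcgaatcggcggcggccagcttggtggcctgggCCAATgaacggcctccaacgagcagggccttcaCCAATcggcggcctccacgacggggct
H1-4: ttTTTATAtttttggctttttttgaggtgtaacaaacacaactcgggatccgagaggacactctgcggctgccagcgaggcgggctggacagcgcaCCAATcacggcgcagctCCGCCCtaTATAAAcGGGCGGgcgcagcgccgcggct
ARMH1: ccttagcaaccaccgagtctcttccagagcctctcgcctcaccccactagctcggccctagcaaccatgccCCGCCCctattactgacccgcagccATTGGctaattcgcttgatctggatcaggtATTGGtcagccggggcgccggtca
BMF: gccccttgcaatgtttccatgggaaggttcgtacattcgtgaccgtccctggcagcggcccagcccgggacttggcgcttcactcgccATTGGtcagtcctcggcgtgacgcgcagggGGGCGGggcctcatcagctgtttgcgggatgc

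HSPA5 has CCAAT at 3 places, and the H1-4 stretch has CCAAT, GC boxes and TATAAA from -29 to -24 bp. In windows of these 150 bases, GGGCGG is present in 43.3% of all 20046 protein-coding genes, CCAAT in 25.3%, CACGTG in 5.22%, TATAAA in 6.69% and CCGGAAG in 7.35%. Over 250 bases upstream of the TSS, GGGCGG was found at 65.1% of the split promoters, 56.8% of those with losses only, 59.9% of those with gains only and 61.1% of those with unchanged regions only. All genes stood at 49.0%, with 29.1% at genes without an H2A.Zac region. CACGTG was found at 11.8% of the split promoters (10.2 to 13.6%) against 9.55% of promoters with losses only, 7.05% of those with gains only and 7.17% of all genes. CCAAT was found at 35.1% of the split promoters, 30.9% of those with losses only, 34.7% of those with gains only and 33.3% of all genes. For TATAAA these shares were 6.09%, 6.38%, 6.41% and 10.01%. It was found at 5.89% of promoters with unchanged regions only and 16.8% of genes without an H2A.Zac region. CCGGAAG was found at 12.3% of the split promoters, between 6.13% with losses only and 16.1% with gains only, beside 8.99% of all genes. With unchanged regions only it was at 11.6%, and without an H2A.Zac region at 2.49%. The part of GC content in these shares was not tested.

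Of all H2A.Zac regions, 25.9% were lost and 26.3% gained. A lost region was found in 21.2% of the 20046 TSS windows, a gained region in 37.4% and both in 7.04%. The rule fixes the last count, and nothing was read from it. A further 2838 genes had losses only, 6081 had gains only, 2598 had unchanged regions only and 7117 had no H2A.Zac region in the window. At 1005 split promoters (71.2%) there was exactly 1 lost and 1 gained region. The 1412 genes fell into 1264 loci, and 287 genes lay in 139 loci with 2 or more of them, where regions were counted for more than 1 gene.

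The lost side was mostly the upstream side. A promoter was called ordered where the midpoints of all its lost regions lay on one side of those of all its gained regions along the strand. The lost regions were upstream of the gained regions at 1161 promoters and downstream of them at 211, while 40 were interleaved. Thus 84.6% of the 1372 ordered promoters had the loss upstream (82.6 to 86.4%). In bases, 83.3% of the lost sequence inside the windows was upstream of the TSS, compared with 26.3% of the gained and 48.5% of the unchanged sequence. At genes with losses only, 53.8% of the lost bases were upstream, and at genes with gains only, 40.1% of the gained bases. Since the rule asks for both directions in 1 window, the place of one limits that of the other, and nothing was read from the difference to these groups.

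**Figure D1:**
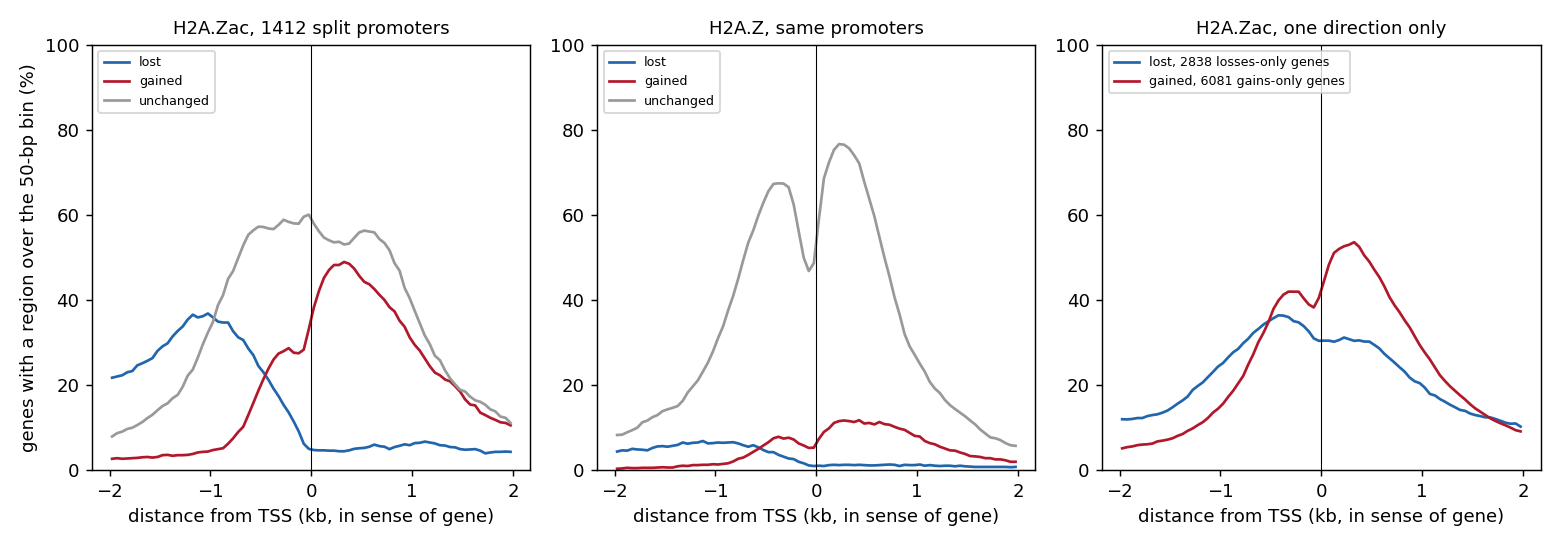
Share of genes (%) with a region over each 50-bp bin, by distance from the TSS in kb along the strand, for H2A.Zac (left) and H2A.Z (middle) at the 1412 split promoters and for H2A.Zac at promoters with 1 direction only (right). At split promoters the lost curve is highest at -1025 bp and the gained curve at 325 bp, and the curves cross upstream of the TSS.

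The positions of the regions differed by direction. Lost H2A.Zac was most frequent at -1025 bp, where it covered 36.8% of the split promoters, and it covered 5.03% of them at -25 bp. Gained H2A.Zac was most frequent at 325 bp (48.9%), on the transcribed side, and covered 4.39% at -1025 bp. Unchanged H2A.Zac was most frequent at -25 bp (60.1%). At the promoters with losses only, the lost curve was highest nearer to the TSS, at -425 bp (36.4%), and still covered 30.4% of them at -25 bp. The gained curve of promoters with gains only was highest at 325 bp (53.6%), as at the split promoters. Each split promoter had to hold a gained region as well, and gained regions were most frequent just after the TSS. The part of this rule in the profiles around the TSS was not tested, and nothing was read from the distance between the lost curves.

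Between the nearest lost and gained region of a promoter lay a median of 711 bp (interquartile range 420.5 to 1095, range 43 to 3340 bp). An unchanged H2A.Zac region was present in the window of 98.2% of the split promoters, compared with 74.6% of promoters with losses only and 91.0% of those with gains only. It reached into the gap at 92.2% of the promoters with the loss upstream and at 87.2% of the 211 with the gain upstream. The TSS itself was inside the gap at 45.6% and 39.3% of them. The TSS base was covered by a lost region at 4.31% of the promoters with the loss upstream, by a gained region at 35.4% and by an unchanged region at 59.3%.

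By the annotation of the canonical transcript, 98.7% of the lost bases at promoters with the loss upstream lay before its start. Of the gained bases at these promoters, 28.2% lay before it, 14.8% in exon 1 and 51.1% in intron 1. At the promoters with the gain upstream, 82.4% of the gained bases lay before the start of the canonical transcript, while 39.4% of the lost bases were in its intron 1, 35.8% before its start and 11.3% in later introns. The canonical start can lie inside the gene: of these lost bases, 8.14% were upstream of the gene start used elsewhere. Since the orders are defined by the places of lost and gained regions, the grouping fixes part of all these shares.

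Lost members had a median width of 562 bp and gained members of 561 bp, compared with 702 and 664 bp for all lost and all gained H2A.Zac regions. The median log10 likelihood ratio was 6.63 for lost and 5.97 for gained members, compared with 8.27 and 6.87 for all lost and all gained regions. At promoters with losses only the lost regions had medians of 645 bp and 7.63, and at promoters with gains only the gained regions had 603 bp and 6.04, close to the ratio of the gained members. This ratio is a measure of evidence for a difference and not a fold change. The lost members ranged from 3.19 to 39.3 and the gained members from 3.23 to 26.0, whereas the highest unchanged region in these windows had 2.73. The share with the loss upstream differed little between low and high ratios. Scored by the direction with the lower ratio, it was 83.7% of 596 promoters below 5, 85.6% of 721 from 5 to 10 and 81.8% of 55 above 10 (69.7 to 89.8%). At the edge of the window, NBR1 was included by a region with 1 base inside it (ratio 4.81), and SLC22A18 was not, since its gained region (5.26) ended 5 bases outside.

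Most lost and gained members also shared bases with an unchanged H2A.Zac region: 36.2% of the lost and 21.8% of the gained ones shared none. At least 25% of their length was in an unchanged H2A.Zac region for 27.0% of the lost and 36.4% of the gained members, and 4.44% and 8.76% lay wholly inside one.

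The promoters with the highest ratios on both sides show the pattern as single cases. GLUL (chr1:182378098-182392206, minus strand, 7 exons in the canonical transcript) had a lost region from -3110 to -1569 bp with a ratio of 39.3, the highest of all lost members. Its gained region ran from -309 to 1808 bp, across the TSS and into the gene, with a ratio of 22.8. An unchanged region lay between -692 and -222 bp. H2A.Z changed with it in both places, being lost from -2507 to -1780 bp (7.41) and gained from -131 to 1397 bp (11.6).

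HSPA5 (chr9:125234853-125241382, minus strand) had a lost region from -4312 to -1461 bp (22.5) and gained regions from -957 to -184 bp (16.3) and from -8 to 813 bp (16.9). The gained regions leave out the stretch that holds most of the sequence printed above. H2A.Z was gained from -908 to -272 bp (7.18) and no lost H2A.Z region was listed in the window. H1-4 (chr6:26156329-26157115, plus strand, 1 exon) lost H2A.Zac from -1619 to -663 bp (19.6) and gained it from -209 to 4035 bp (16.2), over the whole gene and beyond. FOSL1, which encodes a FOS-family subunit of the AP-1 factor, had a loss from -3582 to -994 bp (19.4) and a gain from -19 to 2065 bp (14.1), with H2A.Z gained from 138 to 500 bp (8.88) and from 779 to 1473 bp (7.59).

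PLP2, TNFAIP8L1 and STMN1 show how the border can lie on either side of the TSS. PLP2 had its loss close to the TSS, from -601 to -116 bp (16.0), and its gain from 389 to 1092 bp (18.8). TNFAIP8L1 had both upstream, the loss from -2076 to -824 bp (15.6) and the gain from -483 to -128 bp (21.9). At STMN1, which encodes the microtubule-destabilizing protein stathmin, losses lay from -2578 to -1803 bp (18.96) and across the TSS from -711 to 429 bp (20.9). Its gain lay from 993 to 2923 bp (15.4). RCC2 had its loss from -2483 to -1246 bp (15.7), and the gain with the higher ratio from 1008 to 2610 bp (14.7). TRIM61 and ARMH1 complete the 10 promoters with the highest ratios in this order.

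**Figure D2:**
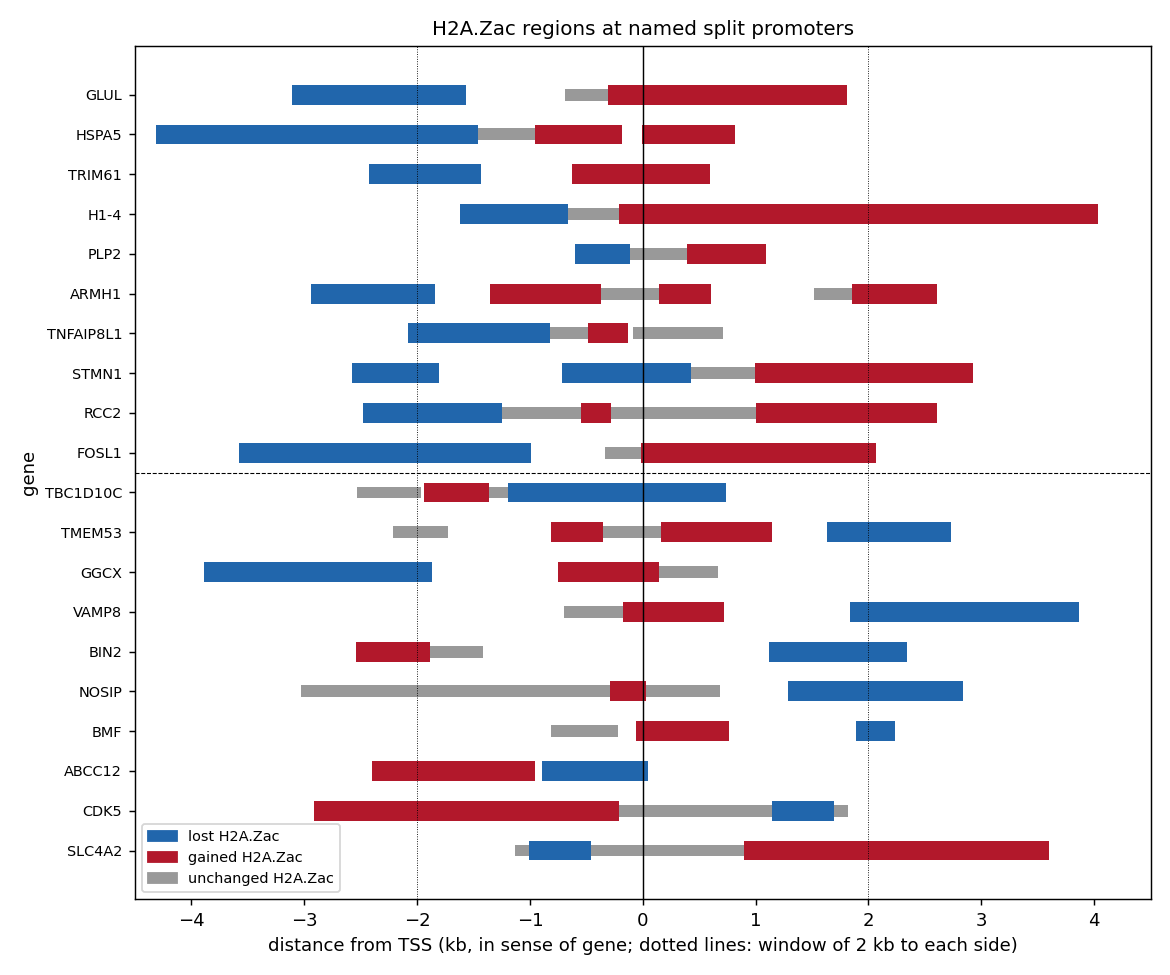
Lost, gained and unchanged H2A.Zac regions of named split promoters, drawn to scale by distance from the TSS in kb along the strand, with genes ranked by ratio above the dashed line (loss upstream) and below it (gain upstream, with genes that share the same regions). GLUL has its loss from -3110 to -1569 bp and its gain from -309 to 1808 bp, and VAMP8 has its loss from 1839 to 3862 bp.

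Of the 10 highest-ranked loci with the gain upstream, 3 also held a gene of the opposite strand with exactly the same regions, for which the loss was upstream. VAMP8 encodes a SNARE of membrane fusion and GGCX the carboxylase of vitamin K-dependent proteins. The gene records of VAMP8 (chr2:85561562-85582031, plus strand) and GGCX start next to each other on opposite strands. Positions at VAMP8 are counted from the start of this record, and the place of its canonical start is not given here. The region lost from 1839 to 3862 bp of VAMP8 (20.8) was thus upstream of GGCX, and the gained region (12.8) covered both starts. EIF3H with UTP23, and CDK5 with SLC4A2, were the other such loci. TMEM53 and ARMH1 also start on opposite strands, and the region lost upstream of ARMH1, from -2939 to -1841 bp (22.2), was lost downstream of TMEM53, from 1630 to 2728 bp. H2A.Z was lost there as well (12.5).

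Other promoters with the gain upstream had no such partner. BMF had its gain from -57 to 760 bp (18.1), over the TSS, and its loss from 1890 to 2238 bp (10.96). H2A.Z was gained there from 139 to 409 bp (4.58) and lost from 1848 to 2171 bp (6.54). NOSIP had a gain from -294 to 28 bp (12.0) and a loss from 1284 to 2835 bp (17.0), the latter with a lost H2A.Z region (14.2). At BMF and NOSIP the gain was at the TSS and the loss inside the gene. TBC1D10C instead had its loss over the TSS, from -1192 to 733 bp (17.8), and its gain from -1941 to -1367 bp (20.8). At BIN2 the regions were 3009 bp apart and at ABCC12 65 bp.

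A neighboring TSS on the opposite strand moved with the order. Such a TSS lay within 1 kb upstream of 33.2% of the promoters with the gain upstream (27.2 to 39.8%) and of 13.4% of those with the loss upstream, against 16.7% of all protein-coding genes. The shares at promoters with gains only and losses only were 29.3% and 11.1%. Within 2 kb to either side, such a TSS was found at 57.3% of the split promoters with the gain upstream and 28.8% of those with the loss upstream. Of the 211 genes with the gain upstream, 84 (39.8%) shared a region with a gene that had the loss upstream. Among promoters that share no region, 89.8% of 1098 had the loss upstream (87.9 to 91.5%), and among those that do share one, 63.9% of 274 (58.0 to 69.3%). Ordered genes on opposite strands with exactly the same regions get opposite orders. The counting thus fixes part of the shares at genes with an opposite TSS or a shared region. Without any opposite TSS within 2 kb, 90.2% of 917 had the loss upstream (88.1 to 91.9%). The TSS of the canonical transcript was more than 500 bp from the gene start used here at 31.8% of the promoters with the gain upstream and at 16.3% of those with the loss upstream.

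**Figure D3:**
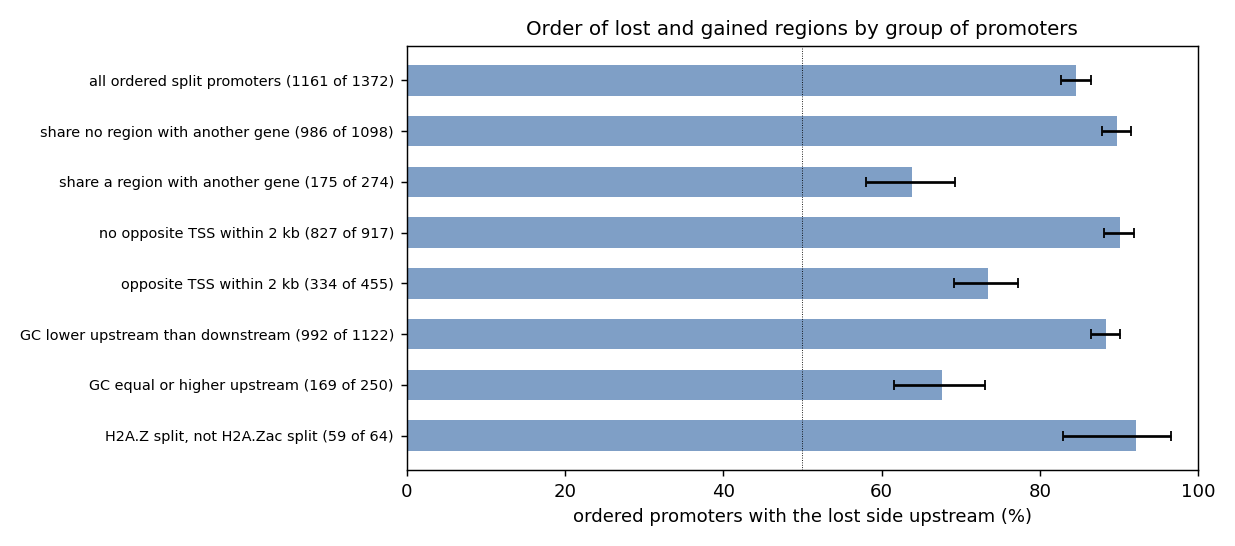
Share of ordered promoters (%) whose lost side is upstream, with Wilson 95% confidence intervals as error bars and the dotted line at 50%, for all split promoters and for groups of them, and in the last bar for the order of H2A.Z regions at promoters split in H2A.Z alone. The share is 84.6% over all promoters, 90.2% without an opposite TSS within 2 kb and 63.9% where regions are shared between genes.

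GC content also moved with the direction, and so did the distance from the TSS. With the loss upstream, the region midpoints had medians of -1100.5 bp for lost and 511.5 bp for gained regions. With the gain upstream, these were 1143 bp for lost and -348.75 bp for gained regions. In both orders the lost median was thus farther from the TSS, and the part of this distance in GC content was not tested. The median GC content was 49.5% in lost and 58.9% in gained members, whereas it was 56.5% in both the lost regions of promoters with losses only and the gained regions of those with gains only. Within a promoter, the lost regions minus the gained regions gave a median of -9.55 percentage points where the loss was upstream and of -5.62 where the gain was upstream. The lost regions were the less GC-rich at 81.1% of the former (78.8 to 83.3%) and at 70.1% of the latter (63.7 to 75.9%). Per 100 bases, lost members had a median of 2.22 CGs and gained members of 5.58, compared with 3.28 in the lost regions of promoters with losses only and 4.98 in the gained regions of those with gains only. Over all lost and all gained H2A.Zac regions, promoters or not, the medians were 1.72 and 1.87.

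The flanks of the TSS differ in GC content at most genes: the 1 kb upstream was the less GC-rich at 73.4% of all protein-coding genes. At split promoters the medians were 52.7% upstream and 61.0% downstream, and over all genes 51.3% and 58.0%. Where the upstream flank was the less GC-rich, 88.4% of 1122 split promoters had the loss upstream (86.4 to 90.2%). Where it was not, 67.6% of 250 did (61.6 to 73.1%). The part of GC content in the order was not tested.

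**Figure D4:**
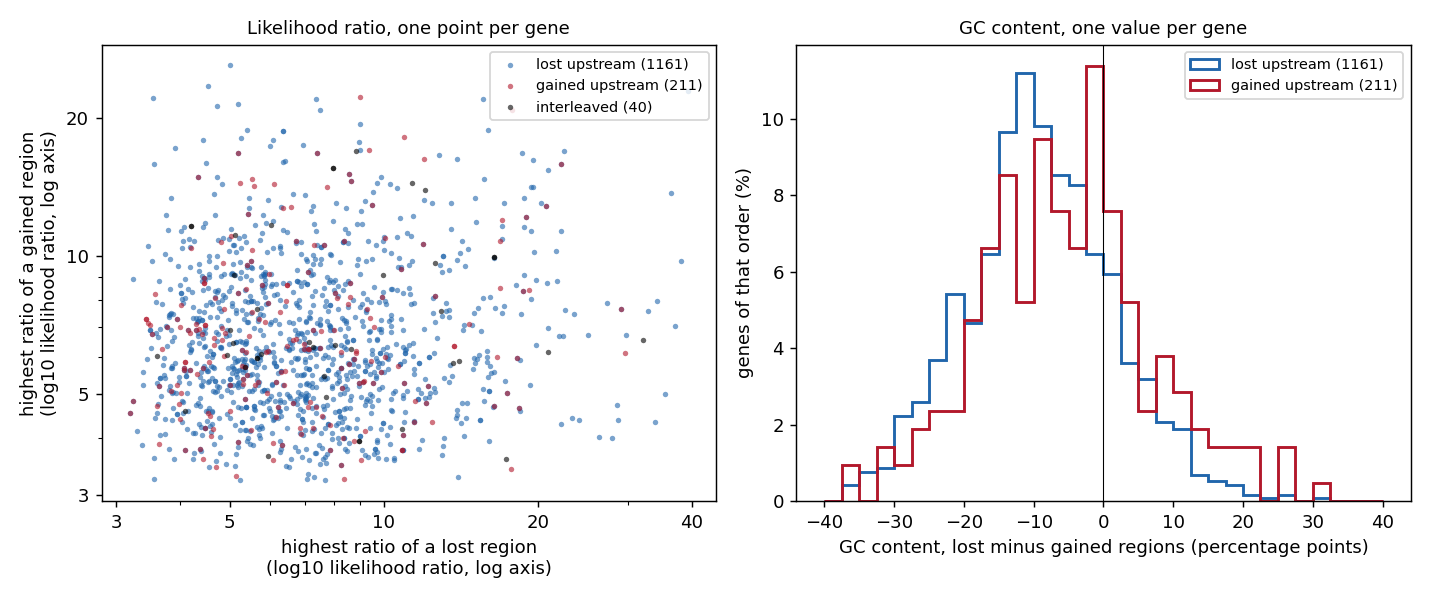
Left, the highest log10 likelihood ratio of a lost region against that of a gained region, 1 point per split promoter, on log axes. Right, GC content of the lost minus the gained regions in percentage points, as a share (%) of the promoters of each order. Points of both orders overlap in ratio, with lost ratios up to 39.3 with the loss upstream and 29.6 with the gain upstream. The median difference in GC content is -9.55 percentage points with the loss upstream and -5.62 with the gain upstream.

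H2A.Z itself, which the rule did not use, changed in the same direction where it changed. Over the genome 19.8% of the H2A.Z regions were lost and 14.1% gained. Of the 1373 lost members, 307 had at least 25% of their length in a lost H2A.Z region (22.4%, 20.2 to 24.6%), and 1 had it in a gained one. Of the 1564 gained members, 335 had it in a gained H2A.Z region (21.4%, 19.5 to 23.5%), and 0 in a lost one. A count of 0 allows up to 3 regions, or 0.192%, and the Wilson upper limit is 0.245%. Unchanged H2A.Z covered as much of 50.5% of the lost and 66.8% of the gained members, and no H2A.Z class did so for 37.1% and 22.95%. At promoters with losses only, 30.1% of the lost regions had lost H2A.Z, and at promoters with gains only, 18.3% of the gained regions had gained H2A.Z. The shares of members with H2A.Z of their own direction depended on the limits used: at a ratio of at least 10 they were 46.3% for the lost and 46.3% for the gained members of 57 promoters, and at an overlap of 50% they were 14.7% and 14.3%.

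The sides of the changed H2A.Z were like those of H2A.Zac. In the windows of split promoters, 82.3% of the bases in lost H2A.Z regions were upstream of the TSS and 28.2% of those in gained ones, while unchanged H2A.Z was balanced at 49.2%. Unchanged H2A.Z covered 76.6% of the promoters at 225 bp and 48.7% at -25 bp, at the TSS. Both lost and gained H2A.Z were in the window of 99 split promoters (7.01%), lost H2A.Z without gained at 17.3%, gained without lost at 24.4%, and unchanged H2A.Z alone at 47.6%. Where both marks were split and H2A.Zac was lost upstream, H2A.Z was also lost upstream at 81 promoters, gained upstream at 0 and interleaved at 1. Where H2A.Zac was gained upstream, the order in H2A.Z was the same at 9, the opposite at 0 and interleaved at 1. Over all protein-coding genes, 163 had lost and gained H2A.Z in the window (0.813%). Of these, 64 were ordered and were not split in H2A.Zac, and 59 of the 64 had the loss upstream (92.2%, 83.0 to 96.6%).

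Genes of pathways linked to TIP60 or to K562 cells were looked up in 10 lists, of which 197 genes were found. Of these, 26 were split (13.2%), against 7.04% of all protein-coding genes and 10.9% of those with any H2A.Zac region. The loss was upstream at 20 of the 26, the gain at 5, and 1 was interleaved. The lists were chosen with earlier results known, and no difference between them was tested.

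Over all protein-coding genes, 30.3% had gains only and 14.2% losses only. Among 19 genes of the TIP60 complex, 3 were split, 4 had losses only and 9 gains only. EP400 (chr12:131949942-132080460, plus strand), the gene that was tagged in both lines, had a loss from -2595 to -1896 bp (8.50) and a gain from -428 to 1580 bp (11.2). ACTB also had the loss upstream, counted from the start of its gene record (chr7:5526409-5563902, minus strand). The place of its canonical start is not given here. MRGBP, a small subunit of the complex, had the gain upstream at low ratios (3.61 lost, 4.70 gained). Of 22 chromatin acetyltransferases and deacetylases, 3 were split, with the loss upstream in each. EP300, a histone acetyltransferase, had its loss from -2173 to -1785 bp (5.57) and its gain from -826 to -33 bp (5.12). Its paralog CREBBP had a loss from -1020 to -658 bp (4.52) and a gain from -87 to 599 bp (4.57). HDAC3, a histone deacetylase, had a loss at 8.64 and the higher-ratio of its gains at 14.6. Of 7 genes for H2A.Z and its exchange, 6 had gains only and 1, the H2A.Z chaperone ANP32E, was split (6.62 lost, 6.46 gained).

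Of 16 STAT5 targets and BCL2 family genes, 5 were split. BAX, a pro-apoptotic effector, had a loss from -5180 to -1127 bp (18.4) and a gain from 74 to 484 bp (5.93). BCL2L1, which encodes the anti-apoptotic BCL-XL, had a loss at 16.3 and a gain at 4.67, and BAK1 and SOCS2 also had the loss upstream. SOCS1, a feedback inhibitor of JAK-STAT signaling, had the gain upstream, from -862 to -22 bp (6.37), and the loss from 1087 to 1582 bp (4.66). Of 18 erythroid and megakaryocyte regulators, 4 were split, with the loss upstream in each. MYB, a transcription factor of hematopoietic progenitors, had a loss from -1970 to -1671 bp (5.38) and gains from -728 to 361 bp (5.99) and from 987 to 1929 bp (6.52). IKZF1, a hematopoietic zinc finger factor, had a loss from -592 to -214 bp (6.53) and a gain from 1256 to 6174 bp (8.73). LYL1 and KLF10 had losses with low ratios (3.46 and 3.56) beside gains with higher ones (10.5 and 15.8).

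Of 15 genes of G1 cyclins, their kinases and CDK inhibitors, 3 were split. None was ordered with all its loss upstream. CCND3, a D-type cyclin, had a gain from -516 to -164 bp (5.68) and a loss from 94 to 852 bp (4.07). These positions are counted from the start of its gene record (chr6:41934934-42050357, minus strand). The place of its canonical start is not given here. CDKN2C, which encodes the CDK inhibitor p18, also had the gain upstream, and the kinase gene CDK6 was interleaved. CDK6 had losses from -2614 to -1542 bp (10.8) and from 1108 to 1427 bp (3.79). Its gain lay between them, from -593 to -328 bp (4.19). Of 29 replication genes, 2 were split and 18 had gains only. MCM6, a helicase subunit, had the loss upstream, and CDT1, a licensing factor, had the gain upstream, from -735 to 152 bp (8.46), with gained H2A.Z from -1424 to -211 bp (7.51) and a loss from 1028 to 1332 bp (5.38). Of 14 AP-1 and early growth response genes, FOSL1 and IER3 were split. Of 46 Notch, Wnt and TGF-beta genes, LRP5, SMAD2 and TGFBR1 were split with the loss upstream, at TGFBR1 from -861 to -164 bp (10.3) with a gain from 688 to 2364 bp (10.1). None of the 11 MYC network genes was split. CCND1 and TERT had losses only and DACH1 gains only.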

How the data were processed

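ChIP-seq reads were aligned by the authors to hg38 with Bowtie2 2.4.5, and peaks were called with MACS2 2.2.7.1. The authors merged replicates, compared the lines with MACS2 bdgdiff using the effective depths given by MACS2, and kept regions with at least 25% of their length in peaks at an irreproducible discovery rate of 0.05. The deposited score of each region is the log10 likelihood ratio between the lines.

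The 6 lists were used as deposited. Gene starts came from GENCODE release 44, later than the release used in the study, and sequence from hg38. The TSS of a gene was the start of its gene record, which can lie away from the start of the canonical transcript. Region positions at named genes are counted from the start of the record, so they need not describe the main promoter. Members and gene lists were chosen with earlier results of these data known. Named genes were the 10 loci of each order with the highest lower-of-both ratio, the list genes that were split, and genes the study names; 1 of these loci is not reported here. Stretches of lost and gained regions were chosen after their values were seen. Overlaps were computed with Python 3.11.15, numpy 2.4.6, pandas 2.3.3 and pysam 0.24.0, and tested on simulated data and against bedtools 2.31.1. Intervals of shares of genes or regions are Wilson 95% intervals. To judge the alternatives, medians had 95% intervals from order statistics, and shares of bases had 95% intervals from a ratio estimator over genes. Windows, ratio and width limits, overlaps, gene starts and chromosomes were varied. Depth is unknown, and inputs, signal tracks and expression were not analysed here.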

Additional observations from a re-analysis of the deposited data

How the results depend on the processing

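The alternatives gave 127 values, of which 81 stayed within the interval of the value reported (or within 1.5 times of the count), 46 moved further and 0 changed direction. A change of direction could be recorded only for the share with the loss upstream and for the GC difference. With windows of 1 kb the rule found 851 genes. Of their ordered promoters 87.4% had the loss upstream, 86.2% of the lost and 22.2% of the gained bases were upstream, the median gap was 573 bp, the GC difference -9.78 percentage points, and 96.8% had an unchanged region. With windows of 5 kb these were 2258 genes, 78.3%, 76.2%, 32.0%, 948.5 bp and -7.68, and 19.2% of the gained regions had gained H2A.Z. At a ratio of at least 5 there were 805 genes, lost and gained regions had H2A.Z of their direction in 27.8% and 26.2%, and 97.3% of genes had an unchanged region. At a ratio of at least 10, 57 genes were left, with the loss upstream at 78.9%, 86.1% of the lost and 30.2% of the gained bases upstream, H2A.Z of the same direction in 46.3% of the lost and 46.3% of the gained regions, a GC difference of -8.13 and an unchanged region at 94.7%. With regions of at least 500 bp there were 561 genes, the order was 87.4%, the bases 86.7% and 23.4%, H2A.Z 31.5% and 31.4%, the gap 789 bp, the GC difference -9.83, opposite TSSs within 1 kb upstream 13.7% and unchanged regions 97.0%. With the TSS of the canonical transcript the order was 87.4% and the bases 87.2% and 29.1%. For genes that share no region they were 89.8%, 88.0% and 22.8%, with opposite TSSs at 10.8%. Overlap of 1 bp with H2A.Z gave 25% for gained regions, and of 50% gave 14.7% for lost and 14.3% for gained ones. The causes of these shifts were not tested. With 1 chromosome left out in turn, the order stayed between 84.2 and 85.2%.

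No paired analysis was possible from the lists used here, because they hold 1 comparison of merged replicates and no value per replicate. For the same reason no replicate was left out, and the depth behind a region is unknown.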

Other observations

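The split promoters were spread over chromosomes 1 to 22 and X. They made up from 4.23% of the protein-coding genes on chromosome 4 to 10.3% of those on chromosome 19. The share of ordered promoters with the lost side upstream ran from 76.6% on chromosome 16 to 95.6% on chromosome X, so the loss was upstream at most ordered promoters of each chromosome. The genes of split promoters had a median length of 31.6 kb, close to the 31.0 kb of genes with gains only and the 31.2 kb of genes with unchanged regions only, while genes with losses only had 26.4 kb and genes with no H2A.Zac region 21.7 kb.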
